A study of Mus musculus with 6 samples.

Results

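The 9 genes described here encode the IRE1 arm of the unfolded protein response and the RNA ligase that completes it. They were taken from the deposited count table by gene name: the IRE1 sensors ERN1 and ERN2, their substrate XBP1, and the ligase genes RTCB, DDX1, FAM98A, FAM98B, RTRAF and ZBTB8OS. The table lists 58735 genes, and each of the 9 names matched 1 of them. RTRAF drew attention to this set because earlier results of these data place it among the genes increased in drug-resistant cells. The differences between the lines are therefore given for all 9 genes as a description, with SEs and intervals but without p-values.

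RNA-Seq covered 22Rv1, a human prostate cancer cell line, in 2 groups of 3 libraries. Parental cells received vehicle. The resistant subline, 22Rv1 BL-B01D1_R, was derived from them by culture in gradually rising concentrations of BL-B01D1, a bispecific antibody-drug conjugate against EGFR and HER3 that carries a camptothecin-type topoisomerase I inhibitor. Both groups share the 22Rv1 background with no engineered allele, and the subline comes from 1 selection, so the spread between libraries covers neither a repeated selection nor, as far as the labels say, separate cultures. Whether drug was present at harvest is not given in the sources used here, and the sample labels name mouse as the organism although the table holds human gene identifiers.

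Counts on genes totaled 13821639 to 17251491 per library, and 3 counts correspond to 0.174 to 0.216 CPM (counts per 1e6 after TMM scaling of the library sizes). On the second principal component, parental library 1 scored 24.3 and parental library 3 scored −19.5, whereas the resistant libraries lay between −1.41 and 1.47. All 8 prostate luminal markers reported here were expressed, and all 8 had an FDR under 0.05 between the groups, 5 higher and 3 lower in resistant cells, with none called. KLK3 (2.67 to 4.96 CPM, log2 fold change 0.91, edgeR FDR 6.06e-04), TMPRSS2 (17.3 to 29.8 CPM, 0.79, edgeR FDR 4.74e-10) and KLK2 (12.6 to 20.4 CPM, 0.70, edgeR FDR 4.77e-08) rose. HOXB13 (−0.48), KRT18 (−0.18) and EPCAM (−0.13) fell, and FOLH1 (0.17) and KRT8 (0.0672) rose; these 5 fall outside the naming rule and are the other markers reported. Of 8 leukocyte, endothelial and fibroblast markers, 5 had at most 3 counts in any library, CD3E among them with 0. The summed level of the 8 was 111 to 114 CPM in parental libraries and 39.0 to 43.8 CPM in resistant libraries, most of it LUM, a fibroblast matrix gene that fell from 96.0 to 28.8 CPM (edgeR FDR 1.11e-26). The part of both marker lists in the results that follow was not tested. In bulk RNA, fewer cells expressing a gene and less RNA per cell cannot be told apart.

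IRE1 is a kinase and endoribonuclease in the membrane of the endoplasmic reticulum (ER) that senses unfolded protein. Once active, it cuts a short intron out of XBP1 mRNA, and the RTCB ligase complex joins the exons, so that the active transcription factor XBP1s is made. The same complex joins the exons of intron-containing transfer RNAs. RTCB is its catalytic subunit, DDX1 an RNA helicase, and FAM98A, FAM98B and RTRAF (also known as CGI-99 or hCLE) are further subunits, whereas ZBTB8OS encodes archease, which helps RTCB to act through repeated cycles. The counts are per gene, so they do not separate spliced from unspliced XBP1 mRNA and do not measure ligation.

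Within this pathway, ERN1 and RTRAF differed most between the lines, in opposite directions. ERN1, the gene for the broadly expressed IRE1 sensor (IRE1 alpha), was 5.39-fold lower in resistant cells. RTRAF was 4.86-fold higher. XBP1 was 1.29-fold lower, and the catalytic ligase gene RTCB and its other partners lay within 0.17 of 0 on the log2 scale.

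Of the 9 genes, 8 had enough counts to be tested by edgeR, and each of the 8 had at least 368 counts in every library, so none of them passed the filter through 1 group alone. A gene was called where its log2 fold change was over 1 in size with an FDR under 0.05, the cutoffs of the study's methods. RTRAF was called higher and ERN1 lower. Over all 17142 genes tested, 5.37% were called, 2.53% higher and 2.84% lower. An FDR under 0.05 alone was reached by RTRAF, ERN1 and XBP1, against 35.5% of all genes tested. The groups did not overlap for 4 of the 8 genes, which were RTRAF, FAM98A, ERN1 and XBP1, against 44.8% of all genes tested. Since the set was chosen from this contrast, nothing is drawn from these counts.

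ERN1 (ENSG00000178607) is transcribed from the reverse strand of chromosome 17 between 64039142 and 64130819 (hg38, as for all positions given here). Parental libraries 1, 2 and 3 held 2767, 2740 and 2395 of its counts, and resistant libraries 1, 2 and 3 held 530, 437 and 489. These correspond to 161, 163 and 173 CPM in parental and 32.0, 29.7 and 30.1 CPM in resistant cells. Every resistant library lay far under every parental library. The log2 fold change was −2.43 (SE 0.048, 95% interval −2.53 to −2.33). By size of decrease, ERN1 ranked 35 among the 487 genes called lower. Of these, 14, ERN1 included, kept at least as high a level in resistant cells as ERN1, and ERN1 had the third largest decrease of the 14.

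ERN2 (ENSG00000134398; chromosome 16, 23690326 to 23713500, reverse strand), whose product IRE1 beta is known from mucosal epithelium, was close to absent. Its counts were 2, 2 and 0 in parental and 0, 4 and 4 in resistant libraries. No difference was detectable at this depth, and no fold change is given. PLK1, a mitotic kinase gene, overlaps it on the opposite strand.

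XBP1 (ENSG00000100219) is on the reverse strand of chromosome 22, from 28794555 to 28800597. Its level was 184, 173 and 165 CPM in the parental libraries and 136, 135 and 134 CPM in the resistant libraries. The groups did not overlap, and the resistant libraries were closer to each other than the parental ones, with CVs of 0.679% and 5.43%. The log2 fold change was −0.37 (SE 0.038, 95% interval −0.446 to −0.294).

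**Figure D1:**
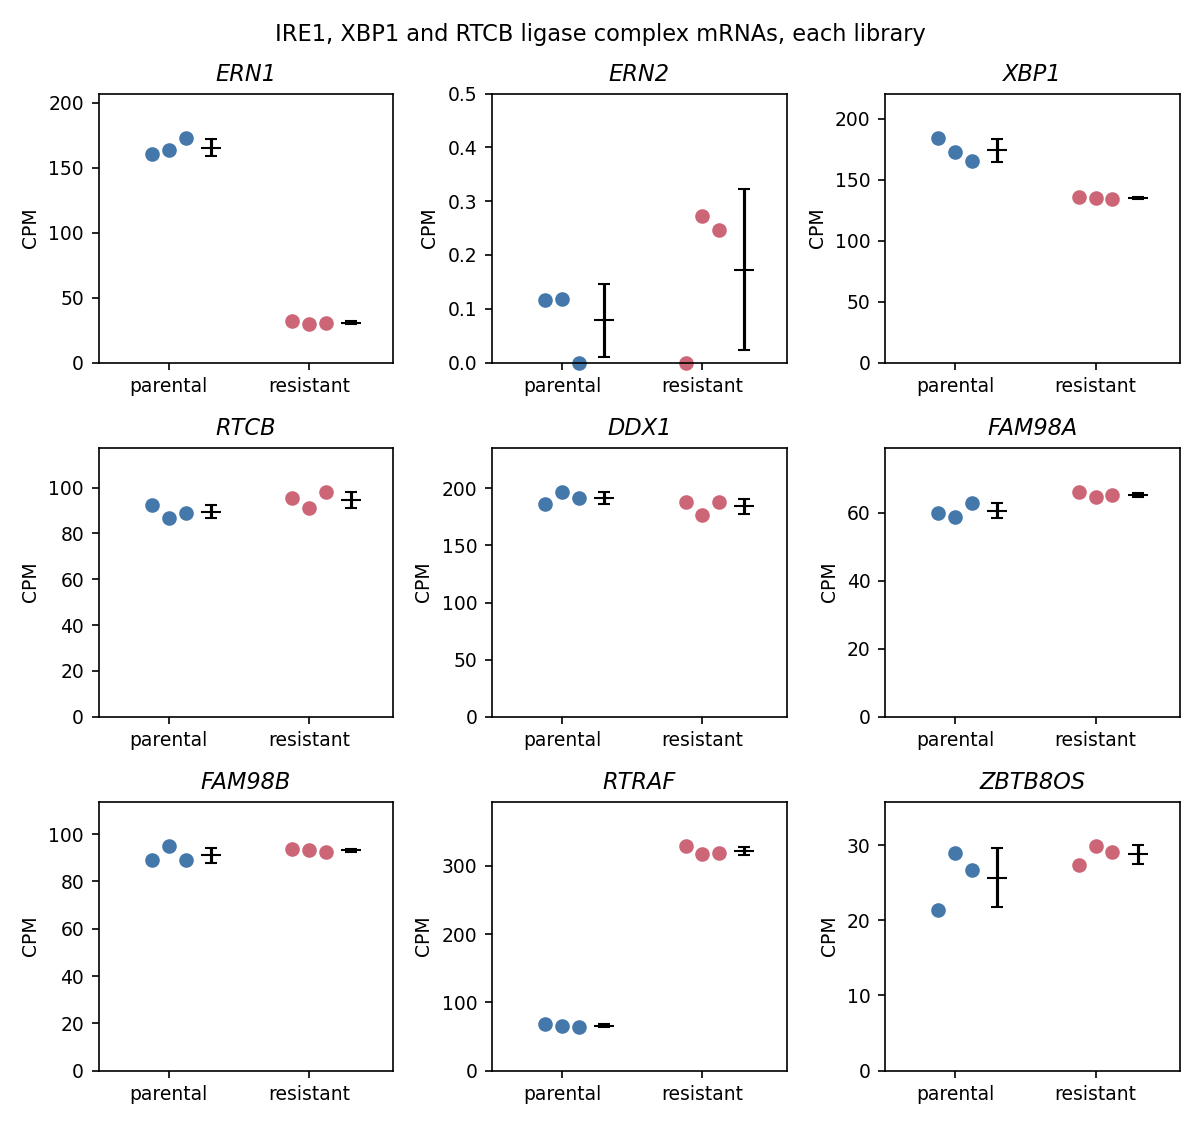
Level of each of the 9 mRNAs in CPM (vertical axes start at 0), with 1 point per library and the mean and SD of 3 libraries in black beside them. ERN1 fell from 165 to 30.6 CPM and RTRAF rose from 66.1 to 322 CPM, whereas RTCB, DDX1 and FAM98B overlapped between the groups.

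RTRAF (ENSG00000087302) lies on the forward strand of chromosome 14, from 51989475 to 52010691. Its counts were 1174, 1109 and 892 in parental libraries and 5446, 4664 and 5183 in resistant libraries. These correspond to 68.1, 66.0 and 64.3 CPM in parental and 329, 317 and 319 CPM in resistant cells. The lowest resistant library stood well above the highest parental one. The log2 fold change was 2.28 (SE 0.036, 95% interval 2.21 to 2.35). The CV within the parental group was 2.91%, close to the 3.07% that counting alone would give. By size of increase, RTRAF ranked 83 among the 434 genes called higher. Of these, 13, RTRAF included, had a parental level at least as high as that of RTRAF, and RTRAF had the largest increase of the 13.

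The other ligase genes stayed near their parental levels. RTCB (ENSG00000100220; chromosome 22, 32387582 to 32412255) was at 92.5, 86.9 and 88.9 CPM in parental and 95.3, 90.9 and 97.9 CPM in resistant libraries. The ranges overlapped, with a log2 fold change of 0.0831 (SE 0.044, 95% interval −0.00510 to 0.171). DDX1 (ENSG00000079785; chromosome 2, 15591178 to 15631111) was at 187, 197 and 191 CPM in parental and 188, 176 and 188 CPM in resistant libraries. Its log2 fold change was −0.0553 (SE 0.035, 95% interval −0.125 to 0.0149), so that a shift as large as that of XBP1 lay outside the interval.

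The FAM98 paralogs are subunits of related sequence, and reads that fit both could be split by the counting. FAM98A (ENSG00000119812; chromosome 2, 33583658 to 33599382) was at 60.0, 58.7 and 63.0 CPM in parental and 66.0, 64.6 and 65.1 CPM in resistant libraries. The groups lay only narrowly apart, and the log2 fold change was 0.11 (SE 0.051, 95% interval 0.00689 to 0.211). FAM98B (ENSG00000171262; chromosome 15, 38454127 to 38487710) was at 89.1, 94.8 and 89.1 CPM in parental and 93.6, 93.2 and 92.5 CPM in resistant libraries. The groups overlapped, with a log2 fold change of 0.0323 (SE 0.043, 95% interval −0.0542 to 0.119).

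ZBTB8OS (ENSG00000176261; chromosome 1, 32600172 to 32650903) had the lowest mean CPM of the tested genes in both groups. In resistant library 2 alone, ERN1 lay just under it at 29.7 CPM. ZBTB8OS was at 21.4, 29.0 and 26.7 CPM in parental and 27.4, 29.8 and 29.1 CPM in resistant libraries. Parental library 1 was low, and the CV of 15.3% in parental cells exceeded the 4.95% of counting error. The log2 fold change was 0.17 (SE 0.084, 95% interval −0.00276 to 0.336), which did not pass the test. It was 0.0437 without parental library 1 and 0.27 without parental library 2, and the latter passed an FDR of 0.05. ZBTB8A overlaps ZBTB8OS on the opposite strand, and strand use in the counting is not given in the sources used here.

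Levels were compared between genes per length, as FPKM from the deposited gene lengths. In parental cells, the order from high to low was XBP1 (54.5 to 60.7 FPKM), DDX1 (48.7 to 51.3), RTCB (29.5 to 31.4), ERN1 (14.8 to 15.9), FAM98B (13.0 to 13.8), FAM98A (11.9 to 12.8), RTRAF (7.72 to 8.18) and ZBTB8OS (6.05 to 8.21 FPKM). All neighbors in this order were apart in every library except RTRAF and ZBTB8OS, whose ranges overlapped. In resistant cells, DDX1 (46.0 to 49.1 FPKM) and XBP1 (44.2 to 44.8) came first, and RTRAF followed at 38.1 to 39.5 FPKM, above RTCB at 30.8 to 33.2. ERN1 was last of the 8 at 2.74 to 2.94 FPKM, under ZBTB8OS at 7.76 to 8.45. Both orders depend on the deposited lengths, which run from 2948 bases for RTCB to 10864 for ERN1. By mean CPM in resistant cells, RTRAF came first at 322, and ERN1 at 30.6 stood above ZBTB8OS at 28.8.

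**Figure D2:**
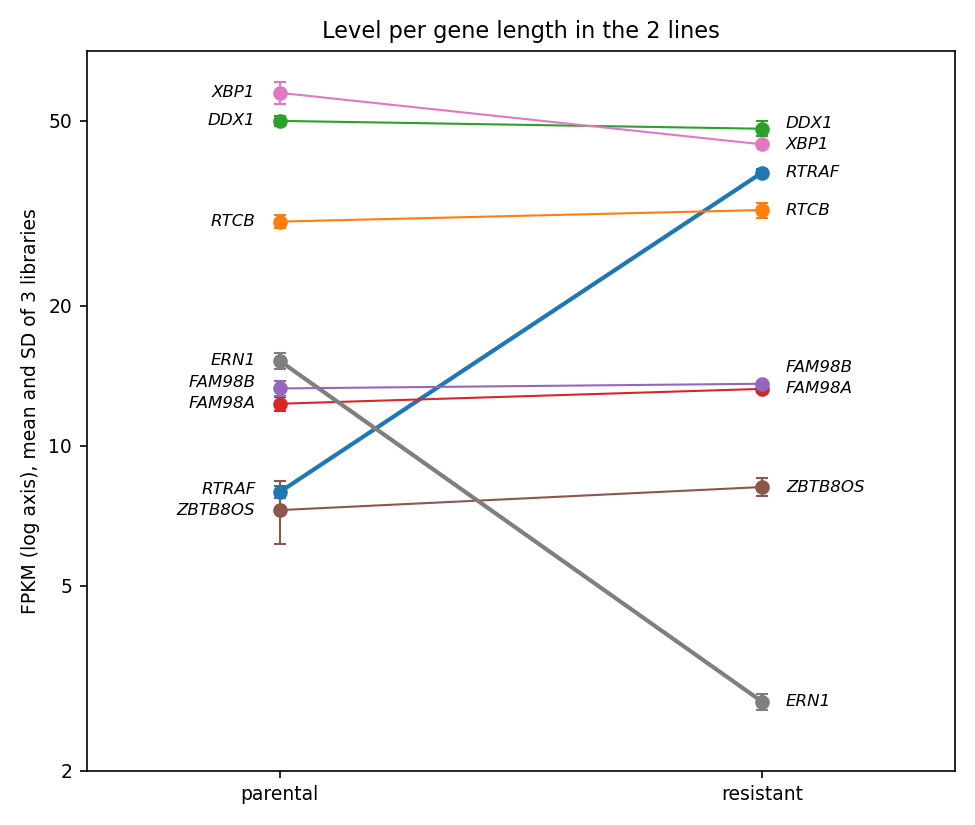
Level per gene length of the 8 tested genes in FPKM (log axis), as mean and SD of 3 libraries in the parental and resistant lines. RTRAF crossed RTCB, from 7.95 to 38.7 FPKM against 30.3 and 32.1, and ERN1 dropped from 15.2 to 2.82 FPKM, whereas XBP1 moved from 57.4 to 44.5 FPKM and the other genes by less.

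Set against RTCB in the same library, RTRAF stood at 0.261, 0.269 and 0.256 of the RTCB level per length in parental cells and at 1.22, 1.24 and 1.16 in resistant cells. The ratio therefore averaged 0.262 ± 0.0066 (SD, n = 3) and 1.204 ± 0.043 (SD, n = 3). For DDX1 it averaged 1.65 ± 0.093 in parental and 1.496 ± 0.022 in resistant cells (SD, n = 3 each). For FAM98A it averaged 0.406 and 0.413, for FAM98B 0.438 and 0.424, and for ZBTB8OS 0.241 and 0.254. The deposited length of RTRAF is 8323 bases and that of RTCB 2948 bases, and these lengths set the ratio between the genes but not its change. In CPM, with no division by length, RTRAF stood at 0.74 of RTCB in parental and 3.40 in resistant cells.

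RTRAF was not alone at its locus. GNG2, a G protein gamma subunit gene that ends 10.1 kb before RTRAF starts (chromosome 14, 51826195 to 51979342), went from 2, 3 and 0 counts in parental libraries to 98, 89 and 61 in resistant libraries. On the summed counts, GNG2 was 50.02-fold higher (exact 95% interval 21.2 to 155, counting error only). NID2, a basement membrane gene on the opposite strand (52004803 to 52069228), overlaps the last part of RTRAF. It had 26, 22 and 16 counts in parental and 131, 86 and 103 in resistant libraries, with a log2 fold change of 2.33 (SE 0.21) and an FDR of 4.87e-12 from edgeR. Without strand, reads of NID2 and RTRAF in the shared stretch cannot be told apart.

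Within 1 Mb of RTRAF, 13 other genes were tested. GNG2 and NID2 were called higher and none lower, against 2.53% and 2.84% of all genes tested. An FDR under 0.05 was reached by 7 upward and 4 downward, against 17.1% and 18.4% of all genes tested. Further out the differences were smaller and of mixed sign. FRMD6, a FERM domain gene, had a log2 fold change of 0.83 (SE 0.13, edgeR FDR 2.66e-06), and TXNDC16, a thioredoxin domain gene at 420 kb, one of 0.56 (SE 0.055, edgeR FDR 4.89e-11). GPR137C (0.26), STYX (0.16) and PSMC6 (0.13) also passed an FDR of 0.05 upward in edgeR. TRIM9 (−0.70), GNPNAT1 (−0.30), ERO1A (−0.25) and FERMT2 (−0.15) passed it downward, and TMX1 (0.0492) and FRMD6-AS1 (0.37) did not pass it. ERO1A encodes an ER oxidase that recharges protein disulfide isomerases. The median log2 fold change was 0.83 over the 5 genes within 0.5 Mb, 0.16 over the 13 within 1 Mb and 0.16 over the 27 within 2 Mb, against 0.00379 over all genes tested. The 2 calls rest on low counts: 1 remained with at least 10 counts required in every library, and 0 with limma on log2(FPKM + 1).

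No such run was seen at ERN1, a window examined after its values were known. Of 33 genes tested within 1 Mb, none was called higher and TCAM1P, a pseudogene at 1.15 CPM in parental and 0.546 CPM in resistant cells, was called lower (edgeR FDR 0.0366). These counts stand against 2.53% called higher and 2.84% called lower of all genes tested. An FDR under 0.05 was reached by 5 upward and 3 downward, against 17.1% and 18.4% of all genes tested. The nearest tested gene, SNORD104 at 15.3 kb, had a log2 fold change of −0.52 (SE 0.33) on low counts and did not pass the test. TEX2, at 16.4 kb, had a log2 fold change of −0.0333 (SE 0.057), and the median over the window was 0.0563. SNORD104 and TEX2 are named because their values were seen. For the other members, none of the nearest tested genes on either side was called, against 5.37% of all genes tested.

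**Figure D3:**
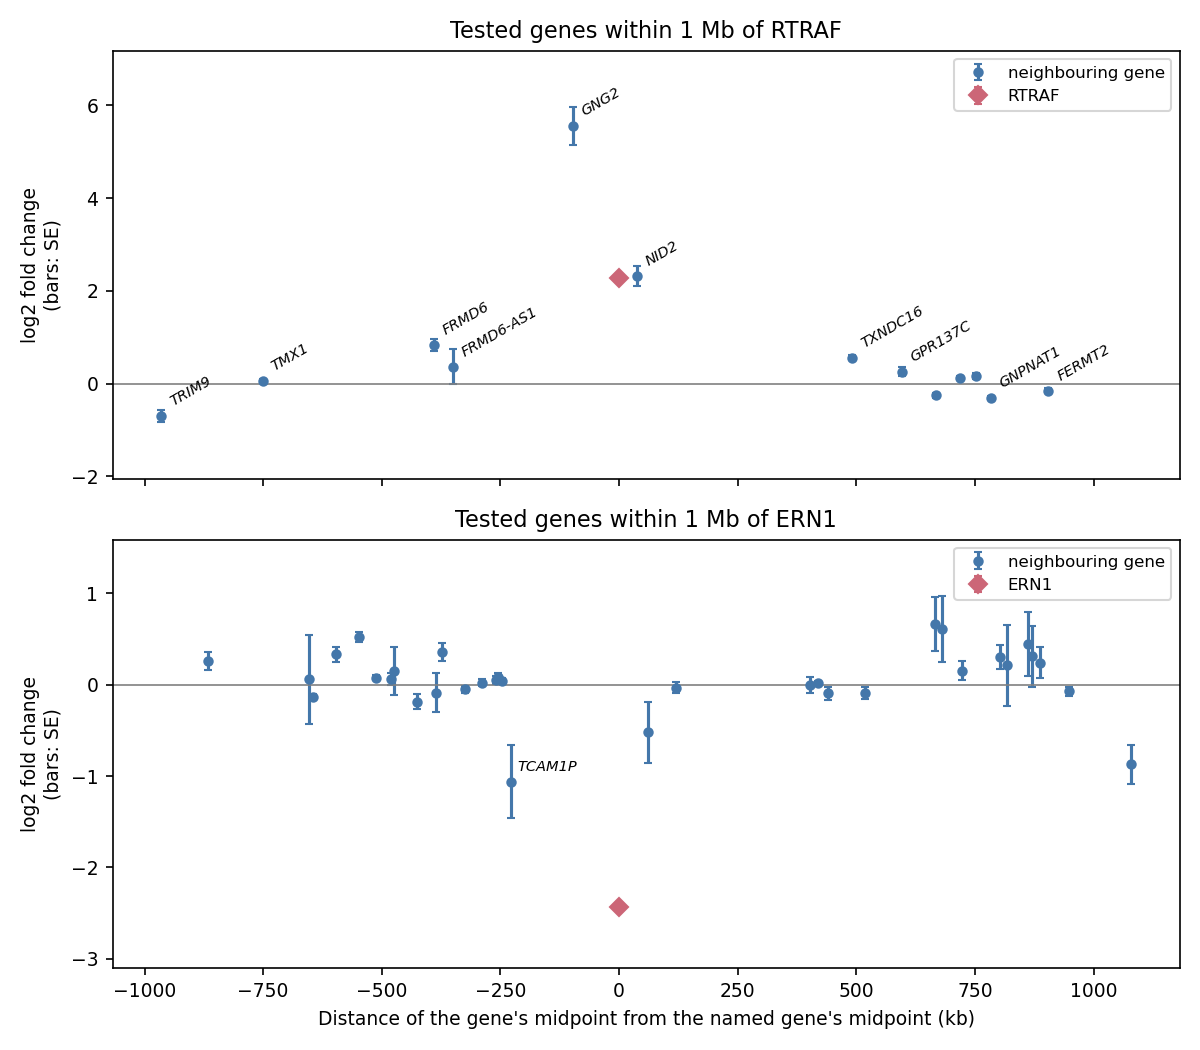
Log2 fold change (resistant over parental) of the tested genes within 1 Mb of RTRAF (top) and ERN1 (bottom) against the distance between gene midpoints in kb, with bars for the SE. GNG2, RTRAF and NID2 stand at 5.55, 2.28 and 2.33 side by side, although the value of GNG2 depends on the prior count, whereas ERN1 at −2.43 stands apart from its neighbors.

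Most of the listed target genes of XBP1s were lower in resistant cells. Of a list of 20 genes of ER import, folding and degradation, all tested, 14 had an FDR under 0.05 downward and 2 upward, against 18.4% and 17.1% of all genes tested, and none was called at the fold change threshold. The median log2 fold change was −0.23, against 0.00379 over all genes tested. This list, like those below, was chosen with earlier results of these data known, so nothing is drawn from these counts. SEC24D, a coat subunit of vesicles that leave the ER, was at 87.4, 97.5 and 92.6 CPM in parental and 57.7, 58.5 and 50.7 CPM in resistant libraries. Its log2 fold change of −0.73 (SE 0.053, edgeR FDR 3.59e-15) was the lowest of the list. DNAJB9, an ER co-chaperone that also holds IRE1 inactive, fell from 41.7 ± 3.35 to 27.4 ± 4.10 CPM (SD, n = 3 each), with a log2 fold change of −0.60 (SE 0.078, edgeR FDR 3.44e-08). SEC61A1, the pore of the ER translocon, fell from 520 to 364 CPM (log2 fold change −0.52, edgeR FDR 2.41e-18), and SSR3, a subunit of the translocon-associated complex, from 267 to 187 CPM (−0.51, edgeR FDR 8.09e-17).

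The 2 genes of the list that rose did so by less than the falls named above. They were SPCS3, a signal peptidase subunit (log2 fold change 0.22), and SEL1L, the adaptor of the ER degradation ligase (0.20), and both are named here because their values were seen. HYOU1 (−0.0766), PDIA6 (−0.14) and SRPRB (−0.18) passed an FDR of 0.05 downward with changes smaller in size than both rises. They are named for the same reason. DNAJB11, DNAJC3, DERL1 and DERL2 did not pass the test, with log2 fold changes of −0.0664, −0.0783, 0.0353 and 0.0687.

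Besides XBP1 mRNA, IRE1 can cut other mRNAs at the ER, which are then degraded. Of 10 such reported targets, 8 were tested, and 2 had an FDR under 0.05 upward and 3 downward, against 17.1% and 18.4% of all genes tested, with a median log2 fold change of 0.0265. COL6A1, a collagen VI chain, fell from 43.2 to 16.9 CPM (log2 fold change −1.35, edgeR FDR 9.50e-19), and SCARA3, a scavenger receptor, from 19.8 to 11.3 CPM (−0.81, edgeR FDR 1.02e-08). PMP22, a myelin protein gene, fell from 3.82 to 1.52 CPM (−1.36, edgeR FDR 2.85e-04), with resistant library 2 at 2.92 CPM above the other two. DGAT2, a triglyceride synthesis enzyme, rose from 6.97 to 18.04 CPM (1.37, edgeR FDR 9.02e-13), and TGOLN2, a trans-Golgi protein outside the naming rule, rose by 0.15. BLOC1S1, a widely used reporter of this decay, was at 11.0 CPM in parental and 10.9 CPM in resistant cells (log2 fold change −0.00449, SE 0.11).

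Genes for IRE1 partners and regulators moved in both directions. Of 10 tested, 3 had an FDR under 0.05 upward and 4 downward, against 17.1% and 18.4% of all genes tested, none was called, and the median log2 fold change was 0.0141. MAPK8, the JNK1 kinase downstream of IRE1, fell from 70.2 to 54.0 CPM (log2 fold change −0.38, edgeR FDR 1.13e-07). TMBIM6, an ER membrane inhibitor of IRE1, fell from 933 to 863 CPM (−0.11, edgeR FDR 5.01e-04), as did SEC63 (−0.13) and the BCL2 family gene BAX (−0.26). BAK1 (0.28), PTPN1 (0.12) and HSPA5 (0.0817), the ER chaperone BiP that binds the sensors, rose. SEC63, BAX, BAK1, PTPN1 and HSPA5 are named because their values were seen. Of the genes with an FDR under 0.05 upward, 3 in all, 0 were counted without parental library 2 and 1 without resistant library 1. TRAF2 and MAP3K5, the adaptor and kinase that link IRE1 to JNK, had log2 fold changes of 0.0348 and −0.00669 and did not pass the test.

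In the other arms of the response, 2 of 5 tested genes had an FDR under 0.05, both downward, against 18.4% of all genes tested, with a median log2 fold change of −0.13. With 5 genes, nothing is drawn from this count. EIF2AK3, which encodes the sensor PERK, fell from 26.6 ± 0.876 to 19.9 ± 0.884 CPM (SD, n = 3 each; log2 fold change −0.41, edgeR FDR 3.84e-05). ATF6, the third sensor, fell from 80.7 to 74.0 CPM (−0.13, edgeR FDR 0.0322), and its paralog ATF6B and the proteases MBTPS1 and MBTPS2 that release both did not pass the test. Without parental library 2, resistant library 1 or resistant library 2, 1 of the 5 genes passed downward.

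The tRNA splicing endonuclease makes the ends that RTCB joins. Of 4 genes reported for it and its associated RNA kinase CLP1, 1 had an FDR under 0.05, downward, against 18.4% of all genes tested. TSEN15 fell from 93.7 to 85.2 CPM (log2 fold change −0.14, edgeR FDR 0.0114), and TSEN34, TSEN54 and CLP1 did not pass the test. The median log2 fold change was −0.084. Without parental library 1, resistant library 1 or resistant library 2, 0 of the 4 passed. Of 7 accessory factors, 1 had an FDR under 0.05 upward and 1 downward, against 17.1% and 18.4% of all genes tested. C2orf49, which encodes the ligase-associated protein ashwin, fell from 30.1 to 22.9 CPM (−0.39, edgeR FDR 4.68e-05). TRPT1, a tRNA 2′-phosphotransferase of the other joining route, rose from 29.95 to 41.8 CPM (0.48, edgeR FDR 1.93e-07). RTCA, PYROXD1, ANGEL2, CNP and FAM98C did not pass the test, with log2 fold changes between −0.0886 and 0.0861.

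**Figure D4:**
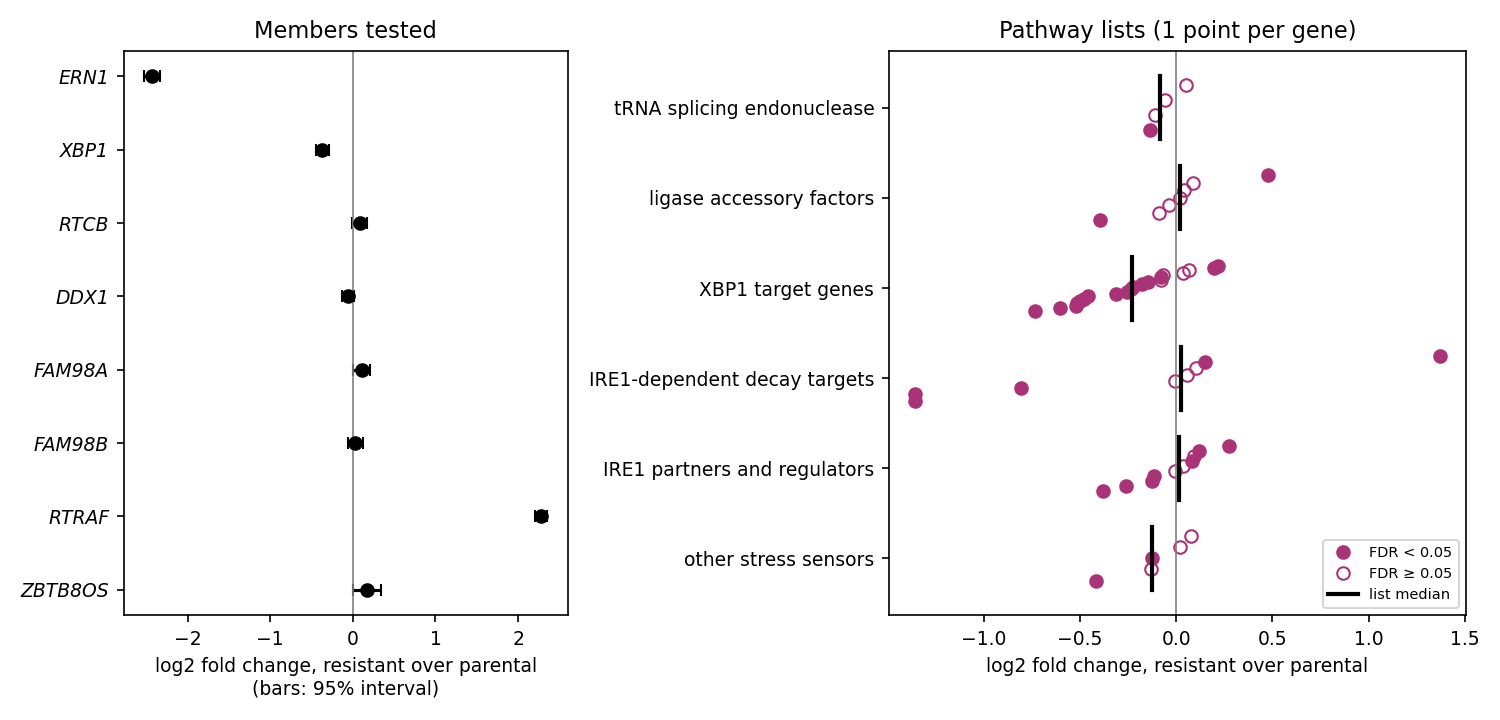
Log2 fold changes (resistant over parental) of the 8 tested genes with 95% intervals (left) and of the genes of 6 pathway lists with list medians as black bars (right, filled where the FDR was under 0.05). ERN1 and RTRAF stand at −2.43 and 2.28, XBP1 at −0.37 and the other 5 genes between −0.0553 and 0.17. On the right, 16 of 20 XBP1 targets are filled, 14 of them left of 0.

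The profile of RTRAF over the 6 libraries was compared with that of every tested gene by Pearson's r of log2 CPM. The most similar were NQO1 (r = 0.99975), DPY19L2 (r = 0.99973), TENM2 (r = 0.99964), TMEFF2 (r = 0.99963) and ABCG2 (r = 0.99956). In all, 257 genes had an r of at least 0.99. The 6 libraries fall into 2 groups, so that r here largely reflects the difference between the lines, and it is given as a description.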

How the data were processed

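RNA-Seq was measured in 3 parental and 3 resistant libraries, grouped by the sample titles, and the replicate numbers come from there. The authors mapped reads to hg38 with HISAT2 2.0.5, counted them per gene with featureCounts 1.5.0-p3 and deposited raw counts. fastp is named in the submitters' processing notes. Annotation release, strand setting and filters are not given in the sources used here. FPKM used the gene lengths in bases that the authors deposited beside the counts, which are another quantity. The number of unused per-sample columns was 0. No human sequence was used here.

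From the deposited counts, genes were kept with filterByExpr, scaled with TMM and compared with the quasi-likelihood test of edgeR 4.0.16 (R 4.3.3), with Benjamini-Hochberg adjustment over 17142 genes. The SE is the log2 fold change divided by the square root of F. Common biological variation was 3.51%. The members and lists were chosen with earlier results of these data known. No count is adjusted over a list alone. Named genes are the 9 members, list genes with a log2 fold change over 0.5 in size and an FDR under 0.05 (otherwise the 2 with the smallest p), tested genes within 1 Mb of RTRAF, called nearest neighbors of the other members, and the 5 genes most like RTRAF. Some list genes are not reported here. Exceptions are marked, apart from list genes that did not pass.

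Alternatives were limma-voom (limma 3.58.1, the package named in the methods), DESeq2 1.42.0, library size alone, upper quartile, at least 10 counts in every library, no filter, limma on log2(FPKM + 1), a prior count of 5, protein-coding genes only, a replicate block, other windows, and leaving out each library. On simulated counts for this comparison (16858 genes, 200 changed by 2 on the log2 scale), edgeR recovered 193 with 2 false calls. The simulation gave every gene the same biological variation and every change the same size, whereas 921 genes were called in the data. These figures therefore do not give error rates for the data.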

Additional observations from a re-analysis of the deposited data

How the results depend on the processing

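The log2 fold change of RTRAF ranged from 2.15 to 2.29 over the alternatives and from 2.26 to 2.302 with 1 library left out, and that of ERN1 from −2.45 to −2.09 and from −2.46 to −2.40. The lowest size of both came from limma on log2(FPKM + 1). XBP1 ranged from −0.386 to −0.356 and from −0.404 to −0.328. Of 460 values computed, 429 stayed within set limits, which were the same direction and side of the FDR threshold for a tested value, 1.5 times for a count and 1 SD for a level. Within these limits small counts still moved, as for the stress sensors downward from 2 to 3, the IRE1 partners upward from 3 to 2 and the decay targets downward from 3 to 2. None of the tested values changed sign. The cause of the changes listed next was not tested. The number of members that passed an FDR of 0.05 upward, 1, was 2 with protein-coding genes only, through FAM98A, and 1 to 2 with 1 library left out, through ZBTB8OS. The calls within 1 Mb of RTRAF, 2, were 1 with at least 10 counts in every library, which GNG2 does not reach, and 0 with limma on log2(FPKM + 1). With limma on log2(FPKM + 1), IRE1 partners that passed upward were 1 in place of 3, genes of the other stress sensors that passed downward were 1 in place of 2, and those of the tRNA endonuclease 0 in place of 1. The stress sensors were also 1 with DESeq2 and 1 without a filter. With 1 library left out, the ranges were 0 to 3 for IRE1 partners upward, 1 to 3 for stress sensors downward and 0 to 1 upward, 0 to 1 for the endonuclease downward, and 1 to 2 for accessory factors upward. XBP1 targets stayed at 13 to 14 downward and 2 upward throughout. Ratios to RTCB in CPM moved from those per length, since the gene lengths differ. With the replicate number as a block, the log2 fold change of RTRAF was 2.28 and no call counted here changed. Deviations from the group means of same-numbered libraries had correlations between −0.0197 and −0.00806, so no shared deviation by number was seen. With 3 libraries per group, this check cannot exclude that same-numbered libraries were handled together. Depth limits ERN2, GNG2, NID2 and PMP22.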
